A study of Rattus norvegicus with 6 samples.

Results

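The genes described here are 41 lysosome and autophagy genes, taken as every row of the deposited gene table whose symbol was on a list of lysosomal hydrolases, their cofactors, lysosomal membrane proteins, the transcription factors of the lysosome and the genes that build the autophagosome. The 41 genes were found among the 30957 genes of the table, each in 1 row, and 40 of them had enough counts to be tested.

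RNA-seq was run on sciatic nerves of Sprague Dawley rats, adult males according to the methods of the study. In each group 3 nerves were sequenced, described as biological replicates. The crushed nerves had been injured with forceps on 1 side and were taken at 4 dpi (days postinjury) according to the methods, since the labels give no time. Of the crushed nerves, the methods state that a short piece of the proximal stump was collected, not the whole nerve. The intact nerves, labelled as normal sciatic nerve tissue, were by the methods the uninjured nerves of the opposite side. On that account both groups came from operated rats and no rat without an injury is among the samples.

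Lysosomes are acidic compartments in which hydrolases break down proteins, sugars and lipids. Material from inside the cell reaches them by autophagy, in which a double membrane closes around cargo and then fuses with the lysosome. In an injured nerve, Schwann cells and incoming macrophages are known to break down myelin by these routes, and Tfeb and its relatives are known to switch on many lysosomal genes.

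The depth was alike in the 6 nerves, with total counts on genes from 24844371 to 27139360. A floor of 3 counts was worth 0.11 to 0.121 CPM (counts scaled to library size). Intact nerve 1 stood apart most from its group. Of the genes tested, 16.0% lay more than 0.25 from the mean of the other intact nerves on the log2 scale. The markers that define the labelled tissue were scarce. The Schwann cell and myelin genes S100b, Sox10, Mbp, Mag and Cdh19 were at 3 counts or fewer in all 6 nerves, while Pmp22 had 821 to 968 counts, and the proliferation gene Mki67 reached 43837 counts. The levels given here are thus those of libraries labelled as sciatic nerve, in which defining markers of that tissue were near 0, and whether the libraries match their label was not tested.

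Of the 40 lysosome and autophagy genes tested, Ctsl and Ctsd rose in the crushed nerves and none fell at an adjusted p under 0.05 (quasi-likelihood test of edgeR, Benjamini-Hochberg adjusted over all genes tested). Both encode endopeptidases of the lysosome, cathepsin L and cathepsin D, and both rose by less than 1.2-fold. The 2 genes are 5.0% of those tested, beside 3.12% of all genes tested, of which 1.47% were higher and 1.65% lower. None passed the limits of the study, an absolute log2 fold change above 1 with an unadjusted p under 0.001, which 0.282% of all genes tested passed, 0.218% higher and 0.0646% lower. Where a library holds mixed cells, a change in the number of cells of a type and a change in RNA per cell cannot be told apart.

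Most of the 40 genes differed little between the groups. The median log2 fold change, crushed over intact, was 0.02, with 24 genes above 0 and 16 below, and the values ran from -0.25 to 0.25. Over all genes tested the median was -0.00174. For 37 of the 40 genes the 95% confidence interval of the difference lay within 1.5-fold in either direction, and for 30 within 1.2-fold. The exceptions to the wider limit were Ctsc, Ctsk and Cd68, which had few counts. The sign of a small difference was not firm, since 14 of the 40 genes changed sign under at least 1 other processing choice, none of them with a call.

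**Figure D1:**
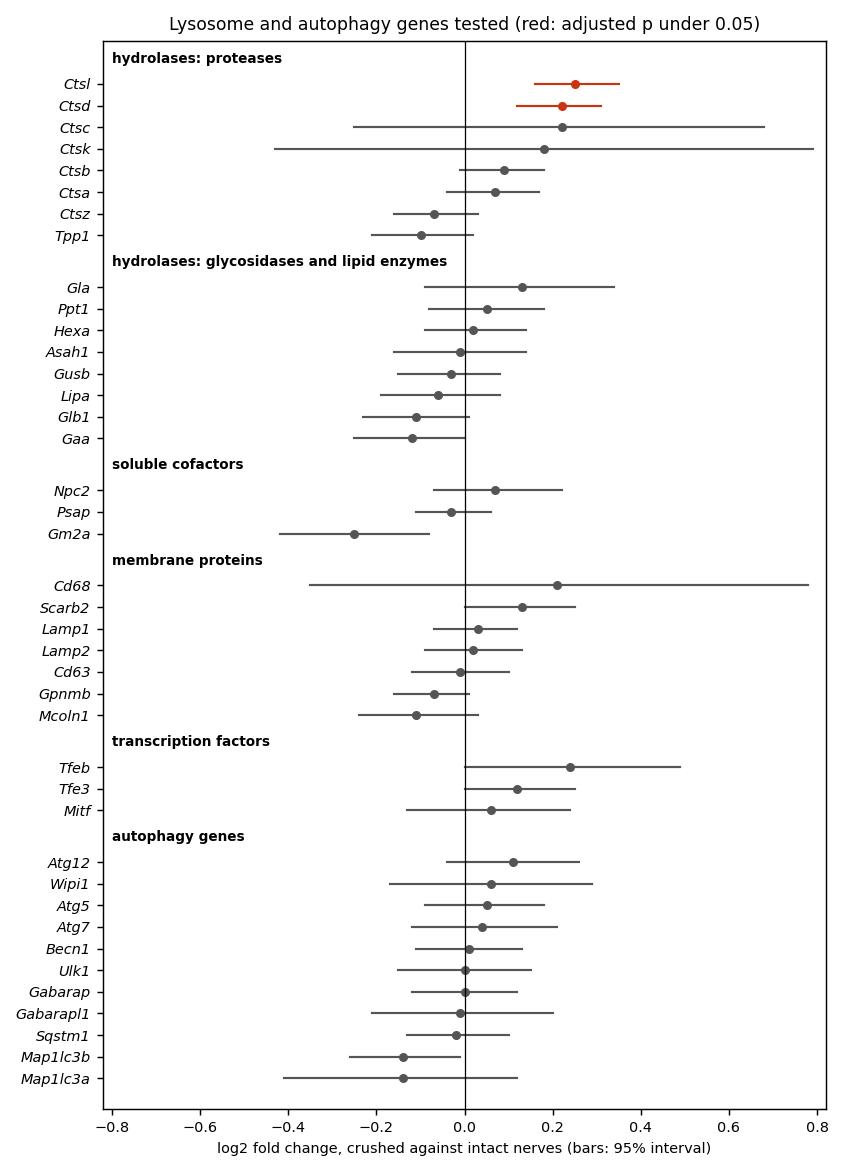
Log2 fold change of the 40 tested lysosome and autophagy genes, crushed over intact nerves, with the 95% confidence interval of each as a bar and the genes grouped by role. Ctsl and Ctsd, in the protease group, are the genes with an adjusted p under 0.05, and all values lie between -0.25 and 0.25.

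Groups that did not overlap were counted as a second view of the same data. In 11 of the 40 genes (27.5%) every crushed nerve lay on 1 side of every intact nerve, beside 23.0% of all genes tested. The 6 genes with all crushed nerves above were Ctsl, Ctsd, Tfeb, Tfe3, Scarb2 and Ppt1, beside 10.8% of all genes tested in that direction. The 5 with all crushed nerves below were Gm2a, Map1lc3b, Glb1, Gpnmb and Ctsz, beside 12.2% of all genes. At an unadjusted p under 0.05, Ctsl, Ctsd and Scarb2 were higher and Gm2a and Map1lc3b lower, which is 12.5% of the 40 genes beside 16.2% of all genes, 6.71% higher and 9.5% lower.

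The proteases held the only calls. In the intact nerves Ctsl stood at 270.4, 271 and 259 normalized CPM, and in the crushed nerves at 305, 329 and 319. No crushed nerve reached down to the intact range. The group mean went up, from 267 ± 6.89 (SD, n = 3) to 318 ± 12.2 normalized CPM, and the log2 fold change was 0.25 (SE 0.0423, 95% confidence interval 0.16 to 0.35, adjusted p = 0.00875 by edgeR). This is a fold of 1.19, with an interval from 1.12 to 1.27. Ctsl (ENSRNOG00000018566) lies on chromosome 17 at 1872848 to 1879279 in the coordinates of the gene table, for which the submitters' processing notes name the build Rnor_6.0. Its call was lost without crushed nerve 2 (log2 fold change 0.23, adjusted p = 0.0661 by edgeR) and held in the other 13 alternatives run.

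Ctsd stood at 383, 406 and 372 normalized CPM in the intact nerves and at 459, 454 and 435 in the crushed nerves. Again the groups did not overlap. The mean rose from 387 ± 17.4 to 449 ± 12.9 normalized CPM (SD, n = 3), a fold of 1.16 with an interval from 1.09 to 1.24. The log2 fold change was 0.22 (SE 0.0437, 95% confidence interval 0.12 to 0.31, adjusted p = 0.0251 by edgeR). Ctsd (ENSRNOG00000020206) lies on chromosome 1 at 215541542 to 215553451. The call held in 9 of the 14 alternatives. It was lost without crushed nerve 1 (adjusted p = 0.131 by edgeR), without crushed nerve 2 (0.117) and without intact nerve 3 (0.0722), and with limma on log2 FPKM (0.053 and 0.0517 with the pseudocounts 0.1 and 1).

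The other proteases did not pass the test. Ctsb, cathepsin B, was the highest of them, at 602 ± 31.9 normalized CPM in the intact nerves and 639 ± 11.1 in the crushed nerves (SD, n = 3), with overlapping groups. Ctsa, which protects lysosomal galactosidase and sialidase, had 112 ± 4.83 and 118 ± 3.85. Ctsz, a carboxypeptidase, had 106 ± 3.37 and 101 ± 1.15, with all crushed nerves below. Tpp1, which removes tripeptides from the ends of proteins, had 79.1 ± 3.56 and 73.9 ± 3.29.

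The cathepsins best known from blood-derived cells and bone were near the lower end. Ctsc, which activates proteases of granulocytes, had 1.57 ± 0.154 normalized CPM in the intact nerves and 1.82 ± 0.408 in the crushed nerves. Ctsk, the collagen-degrading protease of osteoclasts, had 1.22 ± 0.424 and 1.37 ± 0.293. Ctss, the protease of antigen-presenting cells, had 0 counts in 5 nerves and 2 counts in crushed nerve 3, and with both groups below 3 counts no fold can be given. Levels of this kind cannot show a moderate difference, since the intervals of Ctsc and Ctsk reached from 0.842-fold to 1.6-fold and from 0.741-fold to 1.73-fold.

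Summed over the 9 proteases, the level was 1596, 1578 and 1493 normalized CPM in the intact nerves against 1705, 1708 and 1693 in the crushed nerves. The crushed nerves were all above the intact ones and lay closer together. The sum is not separate from the calls of Ctsd and Ctsl. The means that rose most were those of Ctsd (387 to 449 normalized CPM), Ctsl (267 to 318) and Ctsb (602 to 639, not called), while Ctsz and Tpp1 went down. Of the 8 proteases tested, 6 had a log2 fold change above 0, among them Ctsc and Ctsk with few counts, and the median was 0.13. Over all 41 genes the summed level overlapped between the groups, with 5122, 5036 and 4831 normalized CPM in the intact nerves against 5107, 5128 and 5021 in the crushed nerves.

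**Figure D2:**
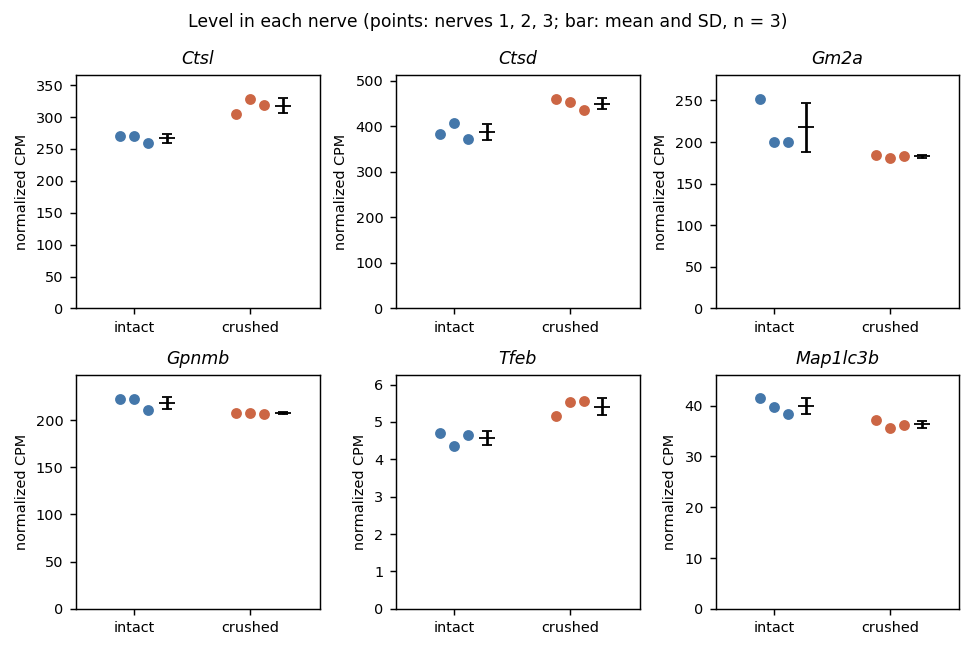
Normalized CPM in each of the 6 nerves for Ctsl, Ctsd, Gm2a, Gpnmb, Tfeb and Map1lc3b, 1 panel a gene, with intact nerves at the left, crushed nerves at the right and a bar for the mean and SD of each group. For Ctsl and Ctsd no crushed nerve reaches down to the intact range, and for Gm2a intact nerve 1 lies far above the other 5.

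None of the 8 glycosidases and lipid enzymes passed the test, and their median log2 fold change was -0.02. The smallest p belonged to Gaa, the glucosidase that breaks down glycogen. It stood at 104, 97.8 and 89.3 normalized CPM in the intact nerves and at 88.4, 90.9 and 87.9 in the crushed nerves. The groups overlapped, since intact nerve 3 lay below crushed nerve 2, and the log2 fold change was -0.12 (SE 0.0572, adjusted p = 0.316 by edgeR). Glb1, the beta-galactosidase, had 129 ± 7.41 and 119.8 ± 5.44 normalized CPM, with all crushed nerves below, and did not pass (adjusted p = 0.335 by edgeR).

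The remaining enzymes of this group overlapped between the groups or nearly touched. Hexa, the alpha subunit of hexosaminidase, had 117 ± 5.42 normalized CPM in the intact nerves and 119 ± 5.89 in the crushed nerves. Gla, the alpha-galactosidase, had 20.2 ± 2.62 and 22.1 ± 1.34, and Gusb, the beta-glucuronidase, had 59.5 ± 2.74 and 58.1 ± 1.54. Asah1, the acid ceramidase, had 108 ± 11.6 and 107 ± 3.63, and Lipa, the acid lipase, had 52.6 ± 2.28 and 50.6 ± 3.29. Ppt1, which removes palmitate from proteins, had 29.9 ± 0.698 and 30.9 ± 0.94.

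Among the 3 soluble cofactors none passed the test. Gm2a, the activator that lifts gangliosides out of membranes for cleavage, stood at 252, 200 and 200.4 normalized CPM in the intact nerves and at 184, 181 and 183 in the crushed nerves. All crushed nerves were below all intact nerves, but intact nerve 1 lay far above the rest. The log2 fold change was -0.25 (SE 0.0779, 95% confidence interval -0.42 to -0.08, adjusted p = 0.129 by edgeR), the lowest of the 40 genes. Without intact nerve 1 it was -0.13 (adjusted p = 0.0756 by edgeR). DESeq2 called it lower (log2 fold change -0.25, adjusted p = 0.0345). Psap, the precursor of the saposins, had 404 ± 11.5 and 396 ± 5.09 normalized CPM, and Npc2, which carries cholesterol inside the lysosome, had 119 ± 8.96 and 125 ± 8.94.

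Gpnmb, a transmembrane glycoprotein of melanosomes and lysosomes, was high in every nerve. It stood at 222, 222 and 211 normalized CPM in the intact nerves and at 208, 208 and 207 in the crushed nerves. All crushed nerves were below all intact ones by a small amount, and the mean went from 218 ± 6.61 to 208 ± 0.243 (SD, n = 3). The log2 fold change was -0.07 (SE 0.0390, 95% confidence interval -0.16 to 0.01, fold 0.951, adjusted p = 0.395 by edgeR), which did not pass. Per length, Gpnmb stood at 94.1 ± 2.58 FPKM (fragments scaled to gene length and library size) in the intact nerves, above 92.9% of the genes tested. It lies on chromosome 4 at 78694447 to 78715683 (ENSRNOG00000008816).

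Macrophages, melanocytes and osteoclasts are known to express Gpnmb, and their markers were low in the same nerves. Of 12 macrophage markers, Adgre1, Ptprc, Tyrobp and Cd163 were at 0 in all 6 nerves, 7 with these included were at or under 3 counts in every nerve, and 3 could be tested, with none changed. Their summed level was 3.15 to 4.74 normalized CPM in the intact nerves and 3.81 to 4.86 in the crushed nerves, so that it overlapped, and the highest single count was 84, of Cd14. Of 5 melanocyte markers 4 were at 0 in all nerves, and Pmel had 139 to 203 counts. Of 5 osteoclast markers 4 were at or under 3 counts in every nerve. Their part in the level of Gpnmb was not tested.

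**Figure D3:**
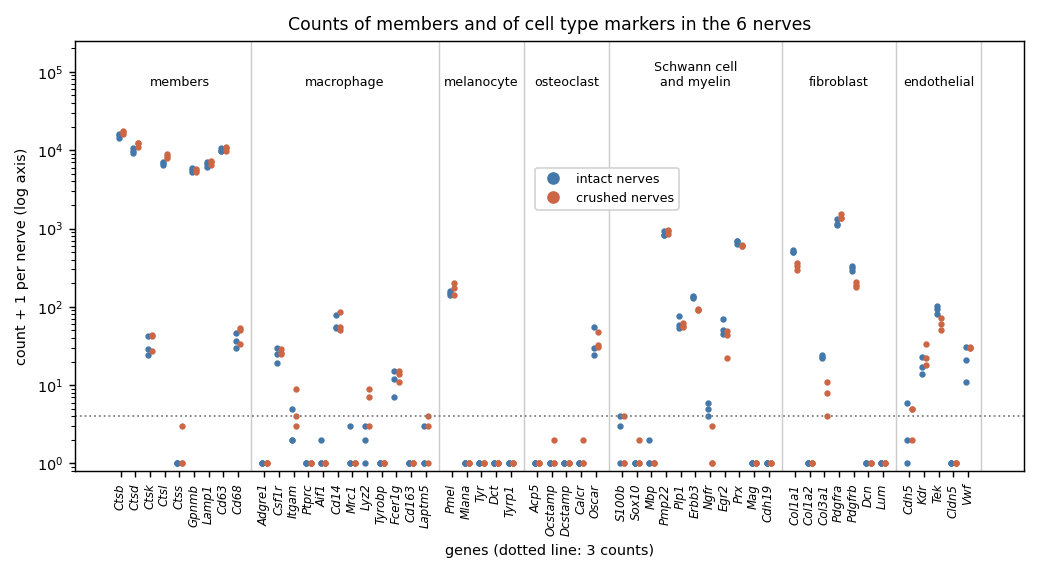
Count plus 1 per nerve on a log axis for 9 of the lysosome genes and for markers of 6 cell types, with intact and crushed nerves in separate colours and a dotted line at 3 counts. Ctsb, Ctsd, Ctsl, Gpnmb, Lamp1 and Cd63 sit far above the dotted line in every nerve, while Adgre1, Ptprc, Tyrobp and Cd163 are at 0.

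The other membrane proteins did not pass the test either. Scarb2, the receptor that carries glucocerebrosidase to the lysosome, had the smallest p of the 7. It stood at 34.4, 37.0 and 36.2 normalized CPM in the intact nerves and at 39.6, 39.3 and 38.4 in the crushed nerves, all of them above. The log2 fold change was 0.13 (SE 0.0557, adjusted p = 0.297 by edgeR). Lamp1 and Lamp2, which line the lysosome, had 259 ± 11.3 and 193 ± 4.38 normalized CPM in the intact nerves against 264 ± 3.65 and 196 ± 12.1 in the crushed nerves. Cd63, a tetraspanin of late endosomes, had 398 ± 28.4 and 395 ± 8.37, and Mcoln1, the calcium channel of the lysosome, had 41.2 ± 1.82 and 38.3 ± 1.49. Cd68, the lysosomal glycoprotein used to stain macrophages, was low, at 1.46 ± 0.38 and 1.69 ± 0.42 normalized CPM with overlapping groups.

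The transcription factors Tfeb, Tfe3 and Mitf had log2 fold changes above 0, and none passed the test. Tfeb stood at 4.70, 4.36 and 4.64 normalized CPM in the intact nerves and at 5.16, 5.52 and 5.55 in the crushed nerves. The groups did not overlap, and the log2 fold change was 0.24 (SE 0.111, 95% confidence interval 0.00 to 0.49, adjusted p = 0.309 by edgeR). Tfe3 had 35.2 ± 1.59 and 38.3 ± 0.273 normalized CPM, with all crushed nerves above (adjusted p = 0.326 by edgeR). Mitf had 10.3 ± 0.371 and 10.7 ± 0.288, with overlapping groups.

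These factors are known to bind short sequences built around CACGTG, and the promoters of the genes were searched for it. The promoters came from RefSeq (assembly GRCr8, a later build than that of the counts), 250 bases before to 50 after the start of each gene, and 34 of the 41 genes had one. The letters CACGTG, which read the same on both strands, were found in 7 of the 34 (20.6%) and in 6.42% of all 33469 promoters. The longer TCACGTGA, which contains the shorter motif, was found in 3 of 34 (8.82%) and in 0.777% of all promoters. The still longer CLEAR element was found in 0 of 34 and in 0.233% of all promoters. In the 117 promoters of the further lists described later, CACGTG was found in 20.5%, TCACGTGA in 11.1% and the CLEAR element in 5 (4.27%). A match is a description of the letters, not evidence that a factor binds there.

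The windows with a match are shown because they belong to Ctsd, which rose, and to Lamp1, Mcoln1, Atg5, Cd63, Gaa and Glb1, which did not pass the test. Each has 30 bases, 5′ to 3′ on the strand of the gene, with the longest match in capitals.
Ctsd, chr1:206968814-206968843, minus strand: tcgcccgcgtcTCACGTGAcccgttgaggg
Lamp1, chr16:83075111-83075140, minus strand: agaccctcggcTCACGTGAccggcgggcgc
Lamp1, chr16:83075084-83075113, minus strand: cgcggcactgtTCACGTGAcaggcgctgcc
Mcoln1, chr12:6358250-6358279, plus strand: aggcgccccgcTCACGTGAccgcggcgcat
Atg5, chr20:49380804-49380833, plus strand: cggggcgctggcCACGTGggcgggtgacgt
Cd63, chr7:1921942-1921971, plus strand: ccgggcagcggcCACGTGgcctgtccaggc
Gaa, chr10:105028276-105028305, plus strand: ccgcccacaaacCACGTGacccacgctgcc
Glb1, chr8:122963606-122963635, plus strand: cggctccggagtCACGTGgcctgcagaggc
The promoter of Ctsl held none of the 3 motifs in this window. Of the 7 genes shown, Ctsd was called higher, and the log2 fold changes of the others were 0.03 for Lamp1, -0.11 for Mcoln1, 0.05 for Atg5, -0.01 for Cd63, -0.12 for Gaa and -0.11 for Glb1. The promoters with a match thus belonged to genes with values on both sides of 0.

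None of the 11 autophagy genes passed the test, and their median log2 fold change was 0.000959. Map1lc3b, which encodes the LC3 protein that is joined to the autophagosome membrane, had the smallest p. It stood at 41.6, 39.8 and 38.4 normalized CPM in the intact nerves and at 37.1, 35.7 and 36.2 in the crushed nerves, all of them below. The log2 fold change was -0.14 (SE 0.0562, 95% confidence interval -0.26 to -0.01, adjusted p = 0.259 by edgeR). Its relatives overlapped between the groups, with 10.9 ± 1.26 and 9.90 ± 1.24 for Map1lc3a, 220.1 ± 18.0 and 220.1 ± 2.25 for Gabarap and 29.5 ± 1.76 and 29.4 ± 3.92 for Gabarapl1. How reads shared by similar copies of these genes were counted is not given in the sources used here, so that their split is uncertain.

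Genes that start and extend the autophagosome also overlapped between the groups. Ulk1, the kinase that starts it, had 35.8 ± 1.57 normalized CPM in the intact nerves and 35.8 ± 2.68 in the crushed nerves. Becn1, a subunit of the lipid kinase complex that acts next, had 113 ± 7.88 and 114 ± 2.92, and Wipi1, which binds the lipid it makes, had 12.1 ± 1.08 and 12.6 ± 1.29. The conjugation genes Atg5, Atg7 and Atg12 had 47.6 ± 0.776, 28.3 ± 2.26 and 26.6 ± 0.668 in the intact nerves against 49.1 ± 3.56, 29.1 ± 1.59 and 28.7 ± 1.72 in the crushed nerves. Sqstm1, the p62 receptor that ties cargo to LC3, had 325 ± 18.6 and 322 ± 13.8. The 95% confidence intervals of all 11 genes lay within 1.5-fold in either direction.

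Per length, the median level of the 40 genes was 22.6 FPKM in the intact nerves, beside 12.6 FPKM for all genes tested, and 13 of the 41 stood in the top 10%. Cd63 came first at 312 ± 21.5 FPKM (SD, n = 3), then Ctsb at 308 ± 15.2 and Gabarap at 266 ± 20.9. The first 2 overlapped between nerves. Below them came Ctsd (190.2 FPKM), Ctsl (161), Psap (156), Sqstm1 (137), Lamp1 (129) and Lamp2 (109.8). The low end held Tfeb (1.93), Mitf (1.70), Cd68 (1.17), Ctsk (0.860), Ctsc (0.831) and Ctss, listed at 0. Of the 40 pairs of neighbours in this order, 19 overlapped between the intact nerves and 21 did not.

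**Figure D4:**
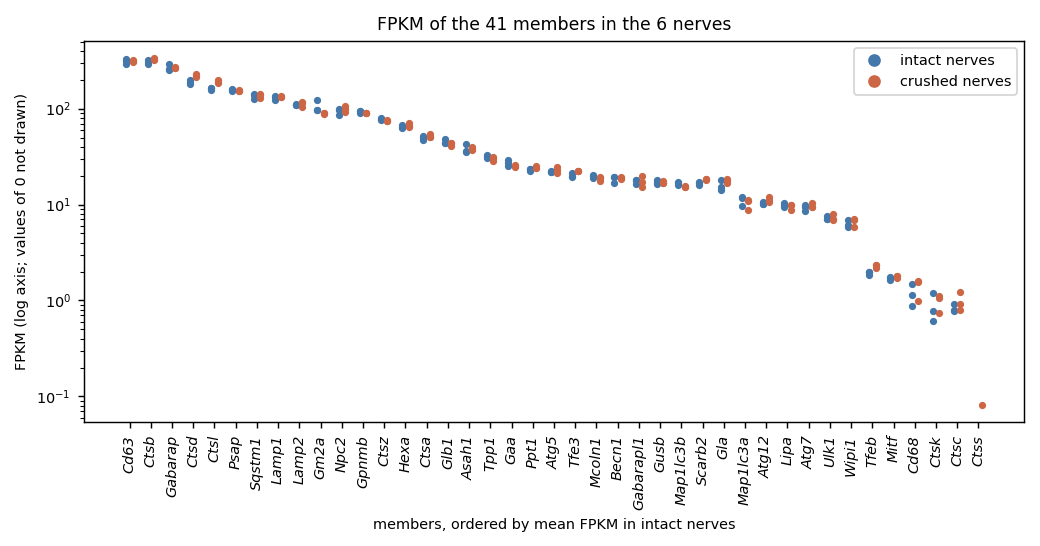
The 41 lysosome and autophagy genes ordered by mean FPKM in the intact nerves on a log axis, with a point for each of the 6 nerves and values of 0 not drawn. Cd63 and Ctsb lead at 312 and 308 FPKM, and Cd68, Ctsk, Ctsc and Ctss stand at the low end.

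Other genes of the same pathways were read from 8 further lists, which hold 141 genes in 143 rows. Of the 131 rows tested, 5 were higher and none lower at an adjusted p under 0.05. This is 3.82% beside 3.12% of all genes tested, with 1.47% higher and 1.65% lower. The median log2 fold change of the 131 rows was 0.02, with 78 above 0 and 53 below.

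Of 23 other hydrolases tested, 3 were higher (13%, beside 1.47% of all genes tested). Manba, the beta-mannosidase that trims sugar chains, stood at 18.9, 19.9 and 19.6 normalized CPM in the intact nerves and at 31.7, 29 and 30.3 in the crushed nerves. The groups were far apart, with a log2 fold change of 0.64 (SE 0.0655, adjusted p = 0.000313 by edgeR) and a fold of 1.56 (95% confidence interval 1.41 to 1.72). Lgmn, the protease legumain that processes cathepsins, stood at 74.3, 68.9 and 66.4 in the intact nerves and at 85.7, 81.9 and 85.2 in the crushed nerves. Every crushed nerve was above, with a log2 fold change of 0.27 (SE 0.0526, adjusted p = 0.0189 by edgeR). The call was lost when any 1 nerve other than intact nerve 1 was left out, with adjusted p from 0.0583 to 0.104 in edgeR.

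Of the 16 tested subunits of the V-ATPase, the proton pump that acidifies the lysosome, Atp6v0a2 was higher (6.25%, beside 1.47% of all genes tested). It stood at 142, 145 and 144 normalized CPM in the intact nerves and at 174, 177 and 171 in the crushed nerves. The nerves of each group lay close together and well apart from the other group, with a log2 fold change of 0.28 (SE 0.0381, fold 1.21, adjusted p = 0.00232 by edgeR). The other 15 did not pass, and the median of the list was 0.06. In 7 of the 16 subunits (43.8%) the groups did not overlap, 5 of them above and 2 below, beside 23.0% of all genes tested (10.8% above and 12.2% below). This was the highest share of the further lists. Over all 131 rows of these lists it was 28 (21.4%), 22 above and 6 below, with 10 of 23 (43.5%) among the other hydrolases and 0 of 17 in the mTORC1 list.

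Of 8 other autophagy receptors tested, Optn was higher (12.5%, beside 1.47% of all genes tested). Optn encodes optineurin, which ties damaged mitochondria and bacteria to LC3. It stood at 37.4, 34.8 and 45.3 normalized CPM in the intact nerves and at 54.5, 57.3 and 57.3 in the crushed nerves. All crushed nerves lay above, though intact nerve 3 was higher than the other intact nerves, and the log2 fold change was 0.53 (SE 0.0854, fold 1.44, adjusted p = 0.00706 by edgeR). The calls of Manba, Atp6v0a2 and Optn held in all 14 alternatives.

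The 5 other lists held no call. The gene with the smallest p was Abca2, a lipid transporter, among 18 other membrane proteins (log2 fold change 0.17, adjusted p = 0.126 by edgeR). Among 12 genes of sorting to the lysosome it was Nagpa, which uncovers the mannose 6-phosphate tag (0.33, 0.267). Among 17 genes of mTORC1 at the lysosome it was Lamtor4, a subunit of the Ragulator complex (-0.20, 0.341), and among 24 other core autophagy genes Pik3r4, a subunit of the lipid kinase complex (0.12, 0.315). Among 13 genes of fusion with the lysosome it was Vps11, a tethering subunit (0.15, 0.176). In the mTORC1 and core autophagy lists none passed even an unadjusted p under 0.05.

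**Figure D5:**
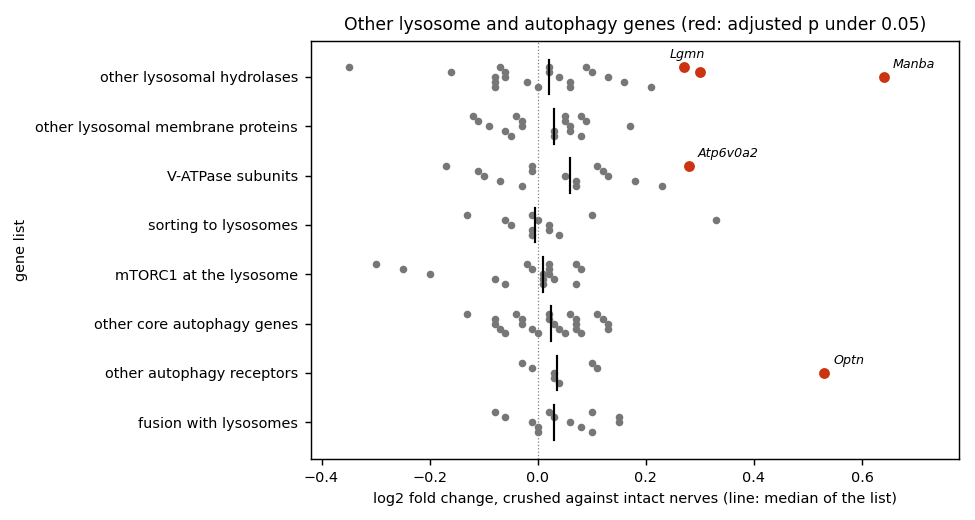
Log2 fold change, crushed over intact nerves, of the 131 tested rows of 8 further lysosome and autophagy lists, with a point for each gene and a line at the median of each list. Manba, Optn, Atp6v0a2 and Lgmn, labelled among the red points, have an adjusted p under 0.05, and the medians lie close to 0.

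Markers of other cell types were read in the same fit. Of 4 fibroblast markers tested, 3 were lower in the crushed nerves, with log2 fold changes of -0.69 for Col1a1, -1.76 for Col3a1 and -0.77 for Pdgfrb, beside 1.65% of all genes tested that were lower. Pdgfra, the most abundant of the list, had 46.6 ± 3.33 normalized CPM in the intact nerves and 53.3 ± 2.78 in the crushed nerves and did not pass (log2 fold change 0.19, adjusted p = 0.166 by edgeR). The summed level of the 7 fibroblast markers was 77.5 to 83.3 normalized CPM in the intact nerves and 70.2 to 76.4 in the crushed nerves, with Col1a2, Dcn and Lum at 0. Of 5 Schwann cell and myelin markers tested, Erbb3 was lower (-0.59), and the summed level of the 12 was 68.0 to 72.3 against 63.6 to 64.8. The proliferation markers summed to 2851 to 3066 against 2722 to 2855, with none called. Neither the rise of Ctsl and Ctsd nor the other differences were tested against these markers.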

How the data were processed

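Total RNA of 3 crushed and 3 intact sciatic nerves was sequenced. The authors deposited 1 table with, per Ensembl gene and nerve, a count of reads, not normalized. Beside them stand the authors' FPKM, which are the counts divided by a gene length and by the total on genes of each nerve. The submitters' processing notes name HISAT2, StringTie 1.3.0 and Rnor_6.0, and strand use in counting is not given in the sources used here. The methods and the labels name different RNA extraction kits, and the methods alone state rRNA removal and an RNase R step, which is known to remove linear RNA. Whether the deposited libraries had this step is not given in the labels, and its part in the counts was not tested.

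All 30957 genes entered 1 fit with edgeR 4.0.16 (R 4.3.3, limma 3.58.1): TMM normalization, edgeR's expression filter (12393 genes kept), the quasi-likelihood test and Benjamini-Hochberg adjustment. The standard error came from the test statistic. Normalized CPM used the TMM library sizes. An exact permutation test of 3 against 3 cannot go below p = 0.1, so p-values are edgeR's. Separate animals are stated only as biological replicates, and intervals and floors on single counts cover counting error only. The script was checked on simulated counts, with dispersions taken from these data. True log2 fold changes of 0.25 and -0.25 were called in 30.8% and 21.1% of genes, and 0.5 and -0.5 in 80% and 71.8%. Most changes of 0.25 or -0.25 were thus missed there. The changed genes were drawn at random from all genes tested, whose median level in the intact nerves was 12.6 FPKM beside 22.6 for the 40 genes. These rates need not hold for the 40 genes, of which Ctsl was called at 0.25. The design fixed full statistics for Gpnmb, for the genes with an adjusted p under 0.05 and for the gene with the smallest p of each role group with none. In each further list it named up to 2 genes in each direction, or the smallest p. The members and lists were chosen with earlier results of these data known.

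The alternatives were DESeq2 1.42.0, limma on log2(FPKM + 0.1) and log2(FPKM + 1), RLE factors, library sizes alone, other filters, an unadjusted p, a replicate block and each nerve left out in turn. Promoters were RefSeq sequences of GRCr8, matched by symbol, and no coordinates were converted between builds. Values of some genes on these lists are not reported here.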

Additional observations from a re-analysis of the deposited data

How the results depend on the processing

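Of the 557 values of single genes under 14 alternatives, 509 kept their call and direction. The count of changed lysosome and autophagy genes, 2 as reported, was 3 with DESeq2 (1 lower, Gm2a), 1 with limma on log2(FPKM + 0.1), 1 with limma on log2(FPKM + 1), both of them higher, and 5 at an unadjusted p under 0.05, of which 2 were lower. With each nerve left out in turn it ran from 0 to 2, with 0 without crushed nerve 2 and 1 without crushed nerve 1 or intact nerve 3. The count of the further lists, 5 as reported, ran from 3 to 4, with 3 without any 1 of the crushed nerves or without intact nerve 2. The count past the limits of the study was 0 under every setting, and the median log2 fold change ran from 0.00368 to 0.0445. Over all genes tested the 387 calls (182 higher, 205 lower) were 242 (156 higher, 86 lower) and 256 (162 higher, 94 lower) with limma at the pseudocounts 0.1 and 1, and 179, 183, 211 and 251 without crushed nerves 1, 2 and 3 and intact nerve 2. Without intact nerve 1 the calls over all genes tested were 392 (218 higher, 174 lower), and without intact nerve 3 they were 303. The cause of these differences was not tested.

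Small log2 fold changes changed sign, none with a call. With library sizes alone they were 0.00469 for Asah1, 0.00607 for Cd63, 0.0108 for Gabarapl1 and 0.0012 for Sqstm1. With limma on log2(FPKM + 0.1) they were 0.01, 0.00813, 0.00321 and 0.00199 for the same genes, and with limma on log2(FPKM + 1) 0.00971, 0.0081, 0.00335 and 0.00197. With each nerve left out, the ranges were -0.0568 to 0.0835 for Asah1, -0.058 to 0.0474 for Cd63, -0.113 to 0.078 for Gabarapl1, -0.0551 to 0.0227 for Sqstm1, -0.019 to 0.0603 for Hexa, -0.00576 to 0.0984 for Atg5, -0.018 to 0.0956 for Atg7, -0.0425 to 0.0435 for Becn1, -0.0619 to 0.0428 for Ulk1, -0.00771 to 0.0726 for Lamp2, -0.00572 to 0.0545 for Lamp1, -0.0381 to 0.0748 for Gabarap, -0.0671 to 0.00112 for Gusb and -0.0163 to 0.483 for Ctsk.

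Whether nerves with the same replicate number came from the same rat is not given in the labels, and the main fit took them as unpaired. Nerves with the same number deviated from their group means with correlations of -0.0148, 0.00586 and 0.0756. With 3 nerves a group, these values cannot settle whether the nerves were paired. With the replicate number as a block, 2 of the 40 genes and 4 of the further lists were called, the median was 0.0212 and Ulk1 stood at -0.000818. With 3 nerves a group and few counts for Ctsc, Ctsk, Cd68 and Ctss, moderate differences of these genes were not detectable at this depth.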

Other observations

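Some lysosome and autophagy genes that most cells use were listed at or near 0 in this table. Galc, which cleaves the galactolipids of myelin, had 0 counts in all 6 nerves, as did Calcoco1, a relative of the autophagy receptors. Lamtor1, an anchor of mTORC1 signalling at the lysosome, had 1479 counts in intact nerve 1 and 900 to 985 in the other 5 nerves.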
